A study of Homo sapiens with 30 samples.

Results

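The mRNA levels of 40 genes that act in mitosis were followed through 3 RNA-seq experiments in 5637 cells, a human bladder carcinoma cell line. The genes were taken by name from a list, and rows for all 40 were found in each table, out of 60612 genes in the knockout table and 56303 genes in each of the overexpression and knockdown tables. The rule that picks them uses their names and no measured value, but the list was drawn up with earlier results of these data known. The knockout experiment held KO1 and KO2 and the wild-type groups WT1 and WT2. In KO1 and KO2 cells RBPMS, the gene of an RNA-binding protein that regulates splicing, had been edited. Each wild-type group was taken here as the control of the knockout of its number, a pairing read from the names. The study describes comparing each knockout with sgCtrl cells. The overexpression experiment held ANKRD10-1, ANKRD10-2 and Vector, in which cells carried one or the other splice isoform of ANKRD10, an ankyrin repeat protein, or the vector only. The knockdown experiment held siANKRD10-1, siANKRD10-2 and siNC, in which cells were transfected with an siRNA to one or the other isoform or with the control siRNA. Each group had 3 libraries. The study describes expansion from single clones for its knockout lines, so that a difference of a knockout from its control cannot be told apart from a difference between clones. The study's text places the ANKRD10-1 overexpression and the siANKRD10-2 knockdown in RBPMS-knockout cells, while the labels name 5637 cells alone, and this was not settled here. In those comparisons RBPMS itself changed by -0.19 (SE 0.13, adjusted p = 0.472) and 0.03 (SE 0.14, adjusted p = 0.894) on the log2 scale. Vector was the control of both overexpression groups and siNC of both knockdown groups, so that comparisons within an experiment shared their control libraries. The knockouts shared no library.

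Mitosis starts when cyclin-dependent kinase 1 is switched on by cyclin B and by the CDC25 phosphatases. Polo-like and Aurora kinases then drive chromosome condensation and spindle assembly, kinesins and kinetochore proteins move and hold the chromosomes, and a checkpoint keeps CDC20 from starting anaphase until every kinetochore is attached. Most of these genes are transcribed late in the cell cycle under FOXM1, B-MYB and the DREAM complex, so that in a growing tumor cell line their mRNAs usually follow the share of dividing cells. In bulk samples fewer cells in mitosis and less mRNA per mitotic cell cannot be told apart.

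Reads were deposited as raw counts per gene, and total counts were 44593108 to 69723937 per library in the knockout table, 31736779 to 47493499 in the overexpression table and 28511029 to 32784584 in the knockdown table. The lowest count of any of the 40 genes in any library was 729, 237 and 275 in these tables. Levels are given as CPM, the usual scaling of counts to the library size, here after TMM normalization, and fold changes as log2 values of the treated group minus its control from edgeR's quasi-likelihood test, with p-values adjusted after Benjamini and Hochberg across every gene in the fit. A gene is called changed at an adjusted p under 0.05. RBPMS fell by 1.44 in KO1 (SE 0.07, adjusted p = 1.25e-07) and by 1.09 in KO2 (SE 0.06, adjusted p = 5.07e-08). ANKRD10 rose by 0.67 and 0.41 on the log2 scale in ANKRD10-1 and ANKRD10-2 and fell by 0.24 and 0.25 in siANKRD10-1 and siANKRD10-2, each past the threshold. These counts per gene do not show which isoform changed. ANKRD10 also fell by 1.18 in KO1 (SE 0.05, adjusted p = 6.55e-08) and by 0.76 in KO2 (SE 0.04, adjusted p = 3.98e-08). All 8 epithelial marker genes were above 1 CPM in every library, as in an epithelial tumor line, and the summed level of 5 leukocyte markers was at most 1.36 CPM. Nothing in the labels says whether libraries of a group came from separate cultures, so p-values measure the spread between these libraries.

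Many of the promoters of these genes hold sequence elements through which the DREAM complex, FOXM1 and NF-Y are known to act. Of the promoters, 4 are printed because their genes carry the results that follow. RefSeq (GRCh38.p14) gave a window of 250 bases before to 50 bases after the start for 33 of the 40 genes. The first window listed for each of these genes was used, while the background was every window, not limited to expressed genes. The cell cycle genes homology region (CHR), searched as TTTGAA or TTCGAA on both strands, occurred in 25 of the 33 windows (75.8%) and in 16.4% of all 35116 windows. The CCAAT box, bound by NF-Y and searched as CCAAT on both strands, occurred in 25 of 33 (75.8%) and in 34.6% of all windows. Neither motif contains the other. Both were present in 21 of 33 windows (63.6%) against 6.38% of all windows, and 15 (45.5%) held 2 or more CCAAT boxes against 10.8%. In the windows below, written 5′ to 3′ on the strand of the gene, capitals mark the CHR and CCAAT letters on either strand. PLK1 (chr16:23678639-23678938, plus strand) and CDC20 (chr1:43358731-43359030, plus strand) were higher in both knockouts, and CENPF (chr1:214602945-214603244, plus strand) and ASPM (chr1:197146620-197146919, minus strand) were lower in both.
PLK1: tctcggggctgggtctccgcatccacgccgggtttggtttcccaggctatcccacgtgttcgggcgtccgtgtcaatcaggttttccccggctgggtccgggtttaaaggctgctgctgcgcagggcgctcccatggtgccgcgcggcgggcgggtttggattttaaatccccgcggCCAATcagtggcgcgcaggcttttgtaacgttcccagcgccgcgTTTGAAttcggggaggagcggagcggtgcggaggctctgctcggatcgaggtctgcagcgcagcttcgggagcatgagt
CDC20: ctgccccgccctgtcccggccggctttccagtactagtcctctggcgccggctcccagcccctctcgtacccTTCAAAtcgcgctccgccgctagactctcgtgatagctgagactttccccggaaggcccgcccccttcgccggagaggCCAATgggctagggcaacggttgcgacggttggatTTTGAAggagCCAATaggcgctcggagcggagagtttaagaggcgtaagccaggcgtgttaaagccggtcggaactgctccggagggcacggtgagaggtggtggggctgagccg
CENPF: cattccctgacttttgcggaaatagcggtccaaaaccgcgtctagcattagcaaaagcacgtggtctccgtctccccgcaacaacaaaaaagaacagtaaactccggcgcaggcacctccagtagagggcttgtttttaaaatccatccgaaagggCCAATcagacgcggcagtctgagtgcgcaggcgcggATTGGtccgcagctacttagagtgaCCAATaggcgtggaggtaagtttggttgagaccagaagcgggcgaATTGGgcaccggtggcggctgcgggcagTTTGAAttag
ASPM: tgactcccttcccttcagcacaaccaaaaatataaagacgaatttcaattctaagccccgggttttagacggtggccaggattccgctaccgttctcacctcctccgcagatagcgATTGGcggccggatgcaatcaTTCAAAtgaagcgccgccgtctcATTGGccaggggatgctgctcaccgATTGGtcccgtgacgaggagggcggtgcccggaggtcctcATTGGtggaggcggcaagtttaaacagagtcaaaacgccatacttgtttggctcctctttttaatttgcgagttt
PLK1 held 1 CHR and 1 CCAAT box, and CDC20 held 2 of each. CENPF and ASPM each held 1 CHR and 4 CCAAT boxes. All 4 windows held both elements, which 21 of the 33 did. Of the other genes called in both knockouts, TOP2A (lower) held 2 CHR and 4 CCAAT boxes, KIF20A (lower) held 2 CCAAT boxes and 0 CHR, and CENPE (lower) held 0 of either. A match of these letters is a description of the window and not of binding.

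None of the 40 genes moved as far as 1 log2 unit (2-fold) in any comparison, and within each experiment some rose while others fell. In KO1 against WT1, 7 genes rose (17.5% of the 40, beside 17.9% of all genes tested) and 5 fell (12.5%, beside 18.2%), together 30% beside 36.1% of all genes tested and 48.4% of the genes whose mean level was 10 CPM or more. In KO2 against WT2, 4 rose (10%, beside 19.3%) and 16 fell (40%, beside 19.2%), together 50% beside 38.5% and 53% of the same backgrounds. In the overexpression experiment 3 rose (beside 3.5% of all genes) and 2 fell (beside 2.81%) in ANKRD10-1, together 12.5% beside 6.31% and 11.4%. In ANKRD10-2 8 rose (20%, beside 10.7%) and 4 fell (10%, beside 9.25%), together 30% beside 19.9% and 31.4%. In the knockdown experiment 9 fell (22.5%, beside 5.52%) and 0 rose (beside 5.08%) in siANKRD10-1, together 22.5% beside 10.6% and 17.7%, where 19 of the 40 had an unadjusted p under 0.05 and DESeq2 also called 0 genes higher and 10 lower. In siANKRD10-2 20 fell (50%, beside 18.7%) and 7 rose (17.5%, beside 17.6%), together 67.5% beside 36.3% and 52.5%. Set beside genes at 10 CPM or more, the share of mitosis genes called in either direction was near or below the background in the knockouts and in overexpression and above it in the knockdowns, by falls. By direction, the share of falls was also larger in KO2, at 16 of 40 beside 2360 of 10055 genes at 10 CPM or more. Rises in KO2 were 4 of 40 beside 2968 of 10055. In KO1, 7 rises and 5 falls of 40 stood beside 2692 and 2176 of 10058. In ANKRD10-1, 3 rises and 2 falls stood beside 648 and 431 of 9498. In ANKRD10-2, 8 rises and 4 falls stood beside 1833 and 1153 of 9498, so that its rises were near this background. In siANKRD10-1, 0 rises and 9 falls stood beside 777 and 873 of 9323. In siANKRD10-2, 7 rises and 20 falls stood beside 2257 and 2633 of 9313. In siANKRD10-1 the 9 falls became 3 without siANKRD10-1 replicate 1, and 3 of the 9 (KIF20A, MKI67 and CENPE) were kept without any 1 library.

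The median log2 fold change of the 40 genes was 0.02 in KO1, -0.07 in KO2, 0.05 in ANKRD10-1, 0.04 in ANKRD10-2, -0.10 in siANKRD10-1 and -0.15 in siANKRD10-2. The medians over all genes tested were -0.002, -0.016, -0.004, -0.005, 0.004 and 0.001 in the same order. With scaling by library totals in place of TMM, the split of calls was 5 higher and 6 lower in KO1, 2 and 19 in KO2, 1 and 2 in ANKRD10-1 and 3 and 8 in ANKRD10-2. In ANKRD10-2 the sign of the median of the 40 genes turned with the scaling, to -0.041 by library totals. The median of all genes tested moved with it, from -0.005 by TMM to -0.085 by library totals. The median of the 40 genes was above that of all genes tested under both scalings. The summed level of the 40 genes was 9119.3 to 9767.8 CPM in WT1, 8868.6 to 9571 in KO1, 9181.4 to 9567 in WT2 and 8356.5 to 8630.1 in KO2. Only the KO2 sums lay wholly below those of their control in that experiment. In the knockdown experiment the sums were 9071.8 to 9376 CPM in siNC, 8114.3 to 8685 in siANKRD10-1 and 9155 to 9197.9 in siANKRD10-2. The siANKRD10-2 sums lay within the siNC range although 27 of the 40 genes were called, with 7 genes higher and 20 lower. Abundant genes weigh most in these sums, such as MKI67, TOP2A and CENPF with means of 1310, 1260 and 1090 CPM in siNC. The sums therefore do not give the typical change of the 40 genes, whose median in siANKRD10-2 was -0.15.

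**Figure D1:**
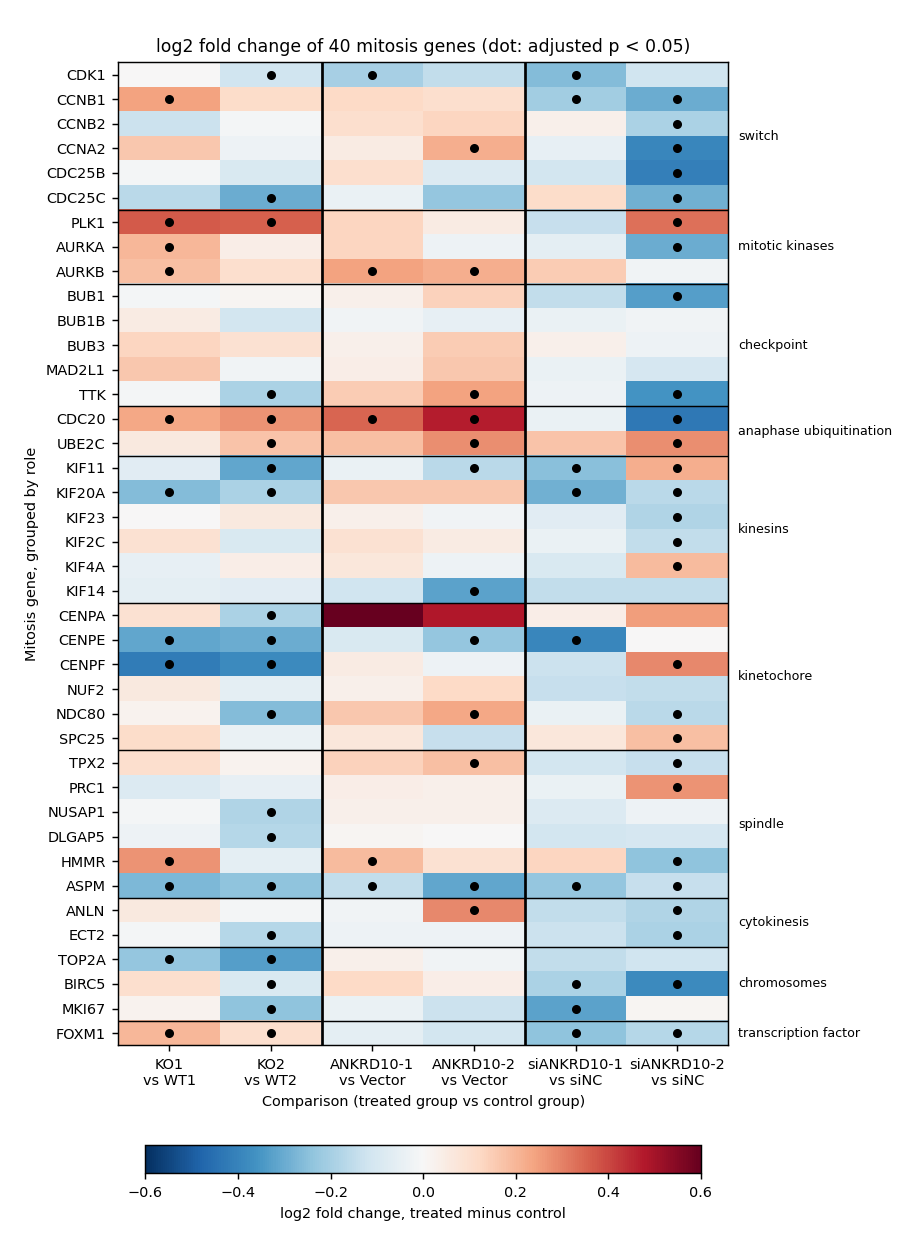
Log2 fold change of each of the 40 mitosis genes (rows, grouped by role) in the 6 comparisons with a control (columns), with red for higher and blue for lower in the treated group and a black dot where the adjusted p was under 0.05. The row of ASPM is blue with a dot in all 6 columns, CDC20 is red with a dot in 4 columns and blue with a dot in siANKRD10-2, and the 2 knockout columns share 8 dotted genes.

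ASPM, a spindle pole protein of proliferating cells, was the only one of the 40 called in all 6 comparisons, each time lower. CDC20 was called in 5. KIF11, KIF20A, CENPE and FOXM1 were called in 4 each, 10 genes in 3, 8 in 2 and 12 in 1. BUB1B, BUB3, MAD2L1 and NUF2 were called in none, with log2 fold changes from -0.15 to 0.16. How often other genes were called over the 6 comparisons was not counted, so this tally has no background. Comparisons within an experiment shared their control libraries, and the 6 are not independent of each other.

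CDK1, the kinase that starts mitosis, had 160.5, 195 and 176 CPM in KO1 and 175, 174 and 184 CPM in WT1, which overlapped (log2 fold change 0.00, SE 0.07, adjusted p = 0.987). In KO2 it had 158, 154 and 155 CPM against 164, 168 and 179.5 CPM in WT2, lower by a small margin (-0.12, SE 0.04, adjusted p = 0.0329). This call was lost when any library but WT2 replicate 1 was left out, with adjusted p up to 0.132, and with all groups of the table in 1 fit (0.15). CDK1 also fell in ANKRD10-1, from 93.0, 96.5 and 94.2 CPM in Vector to 81.6, 82.2 and 83.4 CPM (-0.20, SE 0.05, adjusted p = 0.0117). It fell in siANKRD10-1, from 100.5, 100.7 and 114 CPM in siNC to 88.7, 81.3 and 92.6 CPM (-0.26, SE 0.07, adjusted p = 0.0148). ANKRD10-2 had 79.0, 91.3 and 83.8 CPM (-0.15, adjusted p = 0.0709) and siANKRD10-2 90.7, 97.1 and 101.8 CPM. Without ANKRD10-1 replicate 1 or 2 the former call was lost (adjusted p up to 0.0643), and without siNC replicate 3 or siANKRD10-1 replicate 1 the latter (up to 0.061).

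Cyclin B1 (CCNB1), the activating partner of CDK1, rose in KO1 and fell in both knockdown groups. It had 206, 234 and 235 CPM in KO1 and 181, 193 and 200.5 CPM in WT1, which did not overlap (0.24, SE 0.06, adjusted p = 0.0141), although the call was lost without KO1 replicate 3 or WT1 replicate 1 (adjusted p up to 0.0651). It had 199.9, 198 and 194 CPM in KO2 and 176, 186 and 193 CPM in WT2 (0.11, adjusted p = 0.0627), and 52.2, 47.5 and 51.1 CPM in Vector, 56.5, 53.0 and 55.1 CPM in ANKRD10-1 and 59.5, 53.3 and 48.2 CPM in ANKRD10-2, without passing the test. In siNC it had 146, 144 and 154 CPM, in siANKRD10-1 125, 129 and 129 CPM (-0.21, SE 0.05, adjusted p = 0.0167) and in siANKRD10-2 117, 121 and 123 CPM (-0.30, SE 0.05, adjusted p = 6.7e-05). Every knockdown library lay below every siNC library, and the siANKRD10-1 call was lost without siANKRD10-1 replicate 1 (adjusted p = 0.107). The other activators of the switch fell in siANKRD10-2 as well. CDC25B, a phosphatase that activates CDK1, fell from a mean of 143 CPM to 108 CPM, by 0.41 (SE 0.06), with the highest siANKRD10-2 library at 115 CPM and the lowest siNC library at 138 CPM. Cyclin A2 (CCNA2) fell to 55.2, 55.1 and 58.6 CPM from 69.9, 72.0 and 80.4 CPM, by 0.39 (SE 0.06). CDC25C fell by 0.29 (SE 0.09), a call lost without siANKRD10-2 replicate 1 (adjusted p = 0.101), and cyclin B2 (CCNB2) by 0.19 (SE 0.05), so that 5 of the 6 genes of the switch fell there and CDK1 alone did not pass the test (-0.12, adjusted p = 0.123). In the siANKRD10-1 cells neither CDC25B, CCNA2, CDC25C nor CCNB2 passed the test, and tested directly against siANKRD10-1 all 4 were lower in siANKRD10-2, by 0.22 to 0.39. CCNA2 rose in ANKRD10-2 (0.22, SE 0.06, adjusted p = 0.0242), a call lost without ANKRD10-2 replicate 1, Vector replicate 1 or Vector replicate 2 (adjusted p up to 0.103) and with scaling by library totals (0.131). CDC25C fell in KO2 (-0.30, SE 0.08, adjusted p = 0.00718).

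PLK1, the polo-like kinase of mitotic entry, showed the largest rise among the 40 in each knockout. It had 133, 119.5 and 137 CPM in KO1 against 92.4, 111 and 98.8 CPM in WT1 (0.37, SE 0.07, adjusted p = 0.00234). In KO2 it had 122, 125 and 127 CPM against 97.5, 98.7 and 96.6 CPM in WT2 (0.36, SE 0.04, adjusted p = 1.04e-05). Every knockout library lay above every control library of its pair, the rise was 1.29-fold in both, and the 2 changes differed by 0.00 (SE 0.09, adjusted p = 0.996, 95% interval -0.18 to 0.18). Both calls were kept when any 1 library was left out. Overexpression gave 30.3, 30.5 and 32.2 CPM in Vector, 33.0, 32.7 and 36.3 CPM in ANKRD10-1 and 34.2, 29.7 and 31.6 CPM in ANKRD10-2, with changes of 0.13 (SE 0.06, adjusted p = 0.246) in ANKRD10-1 and 0.05 (SE 0.07, adjusted p = 0.698) in ANKRD10-2. In the knockdown experiment PLK1 had 81.5, 78.2 and 74.2 CPM in siNC, 70.8, 70.7 and 70.7 CPM in siANKRD10-1 and 109, 93.8 and 91.0 CPM in siANKRD10-2. The siANKRD10-2 libraries were all higher than siNC (0.33, SE 0.06, adjusted p = 0.000176), those of siANKRD10-1 all lower without passing the test (-0.14, SE 0.06, adjusted p = 0.132), and the siRNA groups differed by 0.48 (SE 0.06, adjusted p = 3.19e-06). PLK1 thus rose in siANKRD10-2 while CCNB1, CDC25B and AURKA fell. On the annotation, 12.5% of the exonic bases of PLK1 overlap genes on the opposite strand, and the strand setting of the counting was not given in the sources used here.

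AURKA, the kinase of spindle poles, rose in KO1 to 203, 209 and 199.9 CPM from 178, 173 and 184 CPM (0.20, SE 0.05, adjusted p = 0.00546) and stayed at 182, 181 and 179.6 CPM in KO2 against 182, 172 and 178 CPM (0.04). The KO2 change was smaller than that of KO1 by 0.16 (SE 0.05, adjusted p = 0.0439), a difference that lost its call under a replicate block (0.0538) and 3 other alternatives. AURKA fell in siANKRD10-2, to 80.3, 74.6 and 79.0 CPM from 91.3, 97.7 and 98.2 CPM (-0.30, SE 0.06, adjusted p = 0.000142). In siANKRD10-1 it had 93.4, 88.8 and 93.3 CPM (-0.06). In Vector it had 46.1, 42.5 and 48.0 CPM, in ANKRD10-1 51.9, 49.3 and 48.4 CPM (0.13, adjusted p = 0.202) and in ANKRD10-2 48.0, 40.5 and 44.8 CPM (-0.03, adjusted p = 0.823). AURKB, the kinase of the chromosomal passenger complex, had 32.1, 31.3 and 35.2 CPM in Vector, 39.7, 37.8 and 39.7 CPM in ANKRD10-1 and 40.1, 36.2 and 38.0 CPM in ANKRD10-2. It rose in KO1 (0.18, SE 0.06, adjusted p = 0.0359), ANKRD10-1 (0.24, SE 0.06, adjusted p = 0.021) and ANKRD10-2 (0.22, SE 0.07, adjusted p = 0.0338). Each of these AURKB calls was kept in 2 of 6 settings with a library left out and lost in the others (adjusted p up to 0.153, 0.09 and 0.128). They were lost without KO1 replicate 1 or 3 or WT1 replicate 2 or 3, without ANKRD10-1 replicate 1 or 3 or Vector replicate 1 or 2, and without ANKRD10-2 replicate 1 or 3 or Vector replicate 1 or 2. With scaling by library totals all 3 were lost (adjusted p = 0.119, 0.0579 and 0.157), and the KO1 call also without a filter on low counts or with the length trend removed (0.0686 and 0.102).

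Of the 5 spindle checkpoint genes, 0 were called in KO1 and 0 in ANKRD10-1 and siANKRD10-1. BUB1, the checkpoint kinase of kinetochores, had 113, 121 and 117 CPM in KO1 and 110.0, 123 and 122 CPM in WT1 (-0.01, SE 0.06), and 117, 104.9 and 114 CPM in KO2 and 118, 104.3 and 114 CPM in WT2 (0.01, SE 0.05). Both pairs of groups overlapped. BUB1 fell only in siANKRD10-2 among the 6 comparisons, to 53.3, 58.2 and 56.4 CPM from 72.2, 69.4 and 69.9 CPM (-0.33, SE 0.06, adjusted p = 3.85e-05). In Vector it had 56.7, 54.4 and 58.5 CPM, in ANKRD10-1 58.9, 57.8 and 57.2 CPM (0.03), in ANKRD10-2 61.1, 63.7 and 61.9 CPM (0.14, adjusted p = 0.067) and in siANKRD10-1 61.9, 65.8 and 63.1 CPM (-0.15, adjusted p = 0.105). TTK, the kinase that recruits the checkpoint, also fell there (-0.36, SE 0.07, adjusted p = 0.000148) and in KO2 (-0.19, SE 0.04, adjusted p = 0.00439). It rose in ANKRD10-2 (0.24, SE 0.07, adjusted p = 0.0261), a call lost without ANKRD10-2 replicate 2 or 3 or Vector replicate 1 or 3 (adjusted p up to 0.111) and by library totals (0.122). BUB1B, BUB3 and MAD2L1 were called in none of the 6.

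CDC20, the activator of the anaphase-promoting complex and the target of the checkpoint, rose in 4 of the 6 comparisons. In KO1 it had 133, 116 and 125 CPM against 109, 108 and 103.1 CPM in WT1 (0.23, SE 0.06, adjusted p = 0.00887). In KO2 it had 127, 124 and 121 CPM against 107, 104.2 and 99.05 CPM in WT2 (0.27, SE 0.04, adjusted p = 0.000413). The groups did not overlap in either pair. In the overexpression experiment CDC20 was low, with 10.3, 9.69 and 9.44 CPM in Vector (counts of 348 to 456 per library), 11.7, 12.6 and 13.3 CPM in ANKRD10-1 (0.35, SE 0.08, adjusted p = 0.0177) and 14.4, 13.9 and 12.3 CPM in ANKRD10-2 (0.47, SE 0.09, adjusted p = 0.00224). The latter was the largest called rise of any of the 40 genes in the 6 comparisons, 1.39-fold. The ANKRD10-1 call was lost without ANKRD10-1 replicate 2 or 3 or Vector replicate 2 (adjusted p up to 0.0758), and the ANKRD10-2 call was kept without any 1 library. In the knockdown experiment CDC20 had 25.3, 25.6 and 26.4 CPM in siNC, 25.5, 23.9 and 25.9 CPM in siANKRD10-1 and 19.1, 17.6 and 20.6 CPM in siANKRD10-2. The siANKRD10-1 libraries overlapped siNC (-0.04, SE 0.07, adjusted p = 0.801, 95% interval -0.18 to 0.11), while the fall in siANKRD10-2 (-0.43, SE 0.08, adjusted p = 5.8e-05) was the largest fall of any of the 40 genes in the 6 comparisons. CDC20 was thus higher with ANKRD10-2 overexpressed and lower with the siRNA to that isoform. In the direct comparisons it was lower in siANKRD10-2 than in siANKRD10-1 (-0.39, SE 0.08, adjusted p = 0.000361), but the 2 overexpressed isoforms did not differ past the threshold (0.12, SE 0.09, adjusted p = 0.479). UBE2C, the ubiquitin-conjugating enzyme of the same complex, rose in KO2 (0.17, SE 0.05, adjusted p = 0.016), ANKRD10-2 (0.28, SE 0.06, adjusted p = 0.00318) and siANKRD10-2 (0.28, SE 0.06, adjusted p = 0.000378). It had 149, 166 and 161 CPM in KO2 and 135, 145 and 146 CPM in WT2, 79.3, 76.1 and 74.5 CPM in ANKRD10-2 and 67.3, 62.9 and 59.5 CPM in Vector, and 74.0, 80.8 and 82.3 CPM in siANKRD10-2 and 66.1, 63.8 and 66.0 CPM in siNC. In siANKRD10-2 it rose where CDC20 fell. The KO2 call of UBE2C was lost without KO2 replicate 2 or WT2 replicate 1 (adjusted p up to 0.0844), by library totals (0.0565) and without a filter (0.0511).

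**Figure D2:**
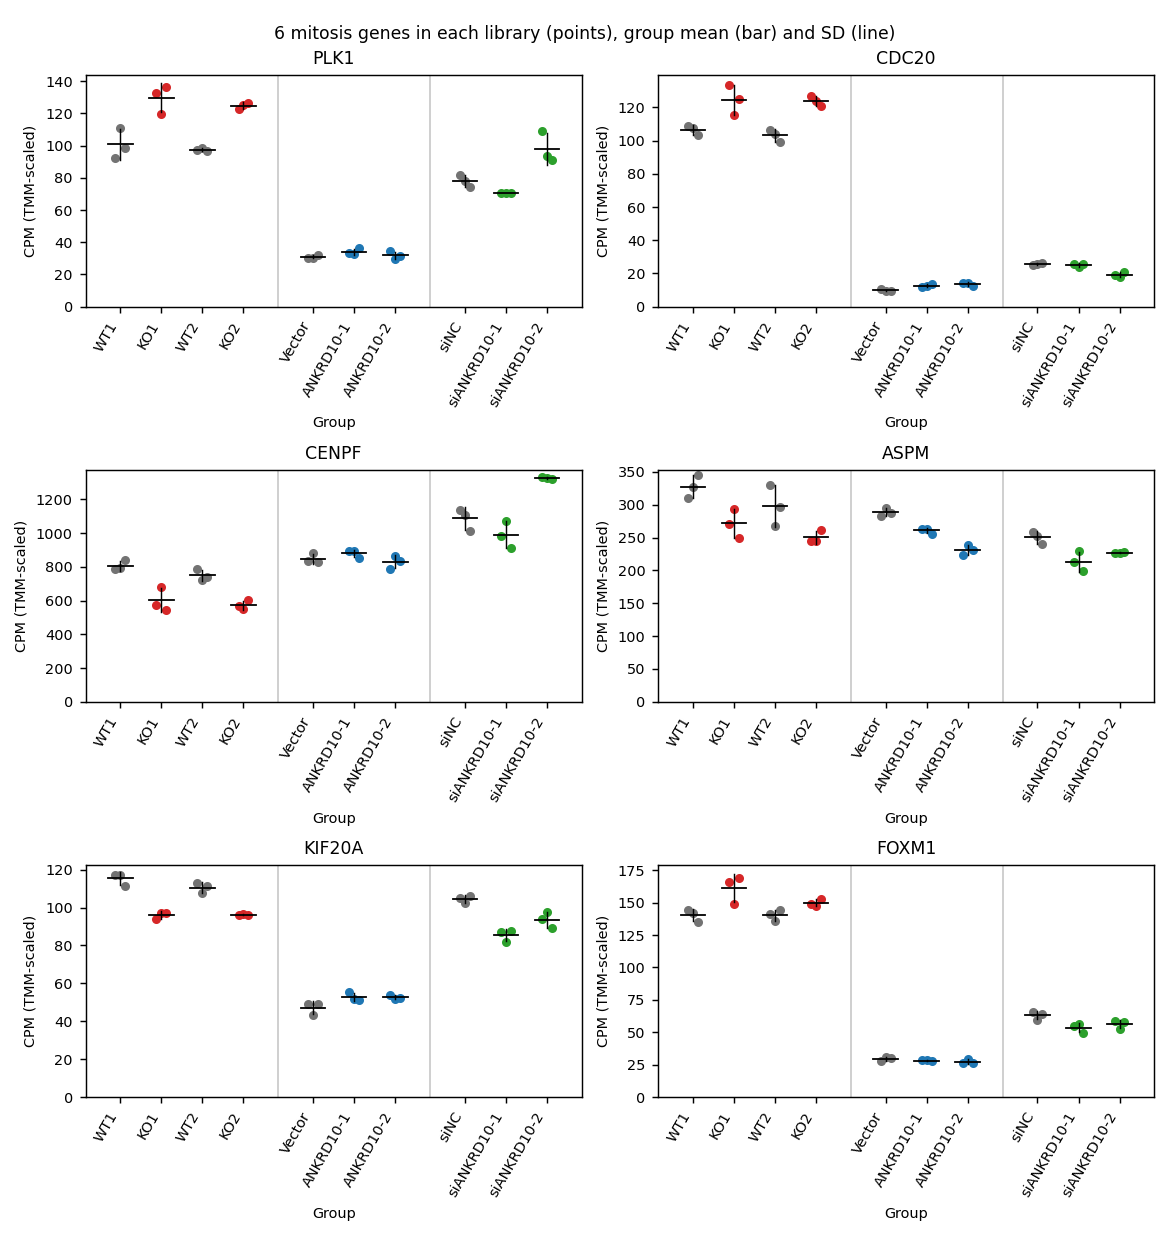
Level of PLK1, CDC20, CENPF, ASPM, KIF20A and FOXM1 in CPM (vertical axes, from 0) in each library, with points for libraries, horizontal bars for group means and vertical lines for 1 SD (n = 3), grey for control groups and colored for treated groups, and vertical rules between the 3 separately counted tables. The knockout points of PLK1 and CDC20 lie above and those of CENPF and KIF20A below the points of their controls.

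Among the kinesins, KIF20A, which works at the central spindle in cytokinesis, fell in both knockouts and both knockdowns. It had 93.8, 97.2 and 97.2 CPM in KO1 against 117, 117 and 112 CPM in WT1 (-0.26, SE 0.05, adjusted p = 0.00183), and 96.1, 96.4 and 95.9 CPM in KO2 against 113, 107 and 111 CPM in WT2 (-0.19, SE 0.04, adjusted p = 0.00192). In siNC it had 104.9, 102.3 and 106 CPM, in siANKRD10-1 87.1, 81.8 and 87.8 CPM (-0.29, SE 0.06, adjusted p = 0.00261) and in siANKRD10-2 93.8, 97.5 and 89.3 CPM (-0.16, SE 0.05, adjusted p = 0.022). No treated group overlapped its control. The siANKRD10-2 call was lost without siNC replicate 1 or siANKRD10-2 replicate 1 or 3 (adjusted p up to 0.115) and by library totals (0.0651), and the other 3 were kept without any 1 library. In Vector it had 49.2, 43.1 and 49.1 CPM, in ANKRD10-1 55.4, 51.7 and 51.4 CPM and in ANKRD10-2 53.8, 51.9 and 52.0 CPM, and neither passed the test (0.16 in each, adjusted p = 0.116 and 0.0759).

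KIF11, the motor that pushes spindle poles apart, had 187, 180.1 and 191 CPM in KO2 against 239, 229 and 227 CPM in WT2 (-0.31, SE 0.04, adjusted p = 2.51e-05), but 204, 226 and 189.7 CPM in KO1 against 209, 218 and 226 CPM in WT1 (-0.07). In the knockdown experiment it had 179, 165 and 156 CPM in siNC, 138, 146 and 137 CPM in siANKRD10-1 (-0.25, SE 0.06, adjusted p = 0.0111) and 195, 189 and 198 CPM in siANKRD10-2 (0.22, SE 0.06, adjusted p = 0.00274). The 2 siRNA groups thus lay on opposite sides of siNC, and the direct difference was 0.47 (SE 0.05, adjusted p = 2.74e-07). The siANKRD10-1 call was lost without siANKRD10-1 replicate 1 or siNC replicate 1 or 2 (adjusted p up to 0.0798). KIF11 also fell in ANKRD10-2 (-0.16, SE 0.05, adjusted p = 0.0252), a call lost without any 1 of the 6 libraries (adjusted p up to 0.076). KIF14, a kinesin of the midbody, fell in ANKRD10-2, to 48.0, 49.3 and 48.6 CPM from 62.3, 65.7 and 55.4 CPM (-0.32, SE 0.06, adjusted p = 0.00303). KIF4A, a chromosome-bound kinesin, rose in siANKRD10-2 by 0.19 (SE 0.05, adjusted p = 0.00462), whereas KIF23 and KIF2C fell there by 0.18 and 0.15. The KIF2C call was lost without siNC replicate 2 or 3 or siANKRD10-2 replicate 1 or 2 (adjusted p up to 0.12), by library totals (0.0731) and without a filter (0.0525).

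CENPF, a large protein of the outer kinetochore, showed the largest fall of the 40 genes in each knockout. It had 577, 681 and 546 CPM in KO1 against 784, 794 and 839.6 CPM in WT1 (-0.42, SE 0.07, adjusted p = 0.00106). In KO2 it had 568, 547 and 601 CPM against 785, 722 and 742 CPM in WT2 (-0.38, SE 0.04, adjusted p = 5.38e-06). All 6 knockout libraries lay below all 6 control libraries, at 0.748 and 0.768 of the control level. In siANKRD10-2 CENPF moved the other way, from 1139, 1107 and 1013 CPM in siNC to 1335, 1328 and 1323 CPM (0.29, SE 0.05, adjusted p = 0.000114), and in siANKRD10-1 it had 983, 1072 and 913 CPM (-0.13, not called). CENPE, the kinesin that brings chromosomes to the spindle equator, had 133, 161 and 124 CPM in KO1 against 162, 167 and 189.9 CPM in WT1 (-0.31, SE 0.09, adjusted p = 0.0217), and 116, 121 and 119 CPM in KO2 against 159, 136 and 146 CPM in WT2 (-0.30, SE 0.05, adjusted p = 0.000621). KO1 replicate 2 (160.8 CPM) lay just under the lowest WT1 library (161.5 CPM), and the KO1 call was kept in 2 of 6 settings with a library left out and lost without KO1 replicate 1 or 3 or WT1 replicate 2 or 3 (adjusted p up to 0.0959). With the 6 WT libraries pooled, or with the length trend removed, that KO1 call was lost too. CENPE fell most in siANKRD10-1, to 181, 199 and 174 CPM from 257, 253 and 219 CPM (-0.39, SE 0.07, adjusted p = 0.000804), and stood at 246, 248 and 238 CPM in siANKRD10-2 (0.00). It also fell in ANKRD10-2, to 126, 150.2 and 134 CPM from 164, 163 and 155 CPM (-0.23, SE 0.06, adjusted p = 0.016), a call lost without ANKRD10-2 replicate 1 or 3 or Vector replicate 1 or 2 (adjusted p up to 0.0693).

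CENPA, the histone that marks centromeres, had 5.84, 9.97 and 16.3 CPM in Vector, 17.4, 15.9 and 15.6 CPM in ANKRD10-1 and 13.5, 15.6 and 15.8 CPM in ANKRD10-2. Its fitted changes of 0.60 (SE 0.21, adjusted p = 0.111) and 0.48 (SE 0.24, adjusted p = 0.182) were the largest of the 40 genes in size and did not pass the test, and the 3 Vector libraries spread more than the treated ones. In KO2 CENPA fell by 0.19 (SE 0.06, adjusted p = 0.0237), a call lost without KO2 replicate 3 or WT2 replicate 3 (adjusted p up to 0.108). NDC80, a subunit of the complex that binds microtubules, fell in KO2 (-0.26, SE 0.05, adjusted p = 0.00157) and siANKRD10-2 (-0.16, SE 0.06, adjusted p = 0.0317) and rose in ANKRD10-2 (0.23, SE 0.05, adjusted p = 0.00744). The siANKRD10-2 call was lost without siNC replicate 2 or 3 or siANKRD10-2 replicate 2 or 3 (adjusted p up to 0.162), by library totals (0.0818) and without a filter (0.0582), and the ANKRD10-2 call by library totals (0.0575). Its partner NUF2 was called in none of the 6, with -0.15 (adjusted p = 0.0609) in siANKRD10-2 and 0.12 (adjusted p = 0.172) in ANKRD10-2. SPC25, of the same complex, rose in siANKRD10-2 (0.18, SE 0.06, adjusted p = 0.0143), where NDC80 fell. The SPC25 call was lost without siNC replicate 2 or siANKRD10-2 replicate 2 (adjusted p up to 0.106).

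ASPM, a protein of the spindle poles, had 271, 294 and 250.1 CPM in KO1 against 310.2, 327 and 346 CPM in WT1 (-0.27, SE 0.06, adjusted p = 0.00675), and 245, 244 and 262 CPM in KO2 against 331, 268 and 296 CPM in WT2 (-0.24, SE 0.06, adjusted p = 0.00636). In Vector it had 283, 295 and 288 CPM, in ANKRD10-1 264, 263 and 256 CPM (-0.15, SE 0.04, adjusted p = 0.0473) and in ANKRD10-2 224, 238 and 232 CPM (-0.31, SE 0.05, adjusted p = 0.000306). In siNC it had 259, 252 and 240.2 CPM, in siANKRD10-1 212, 229 and 199 CPM (-0.23, SE 0.06, adjusted p = 0.0175) and in siANKRD10-2 226, 226 and 229 CPM (-0.14, SE 0.05, adjusted p = 0.0344). Every treated library lay below every library of its control in all 6 pairs, a state that 25.1% of all genes tested had in KO1, 26% in KO2, 12.3% in ANKRD10-1, 18.7% in ANKRD10-2, 13.7% in siANKRD10-1 and 23.7% in siANKRD10-2. Groups that did not overlap, in either direction, were found for 48.5%, 49.3%, 25.5%, 36.2%, 28.3% and 46.5% of all genes tested in the same order. The calls in KO1, KO2 and ANKRD10-2 were kept without any 1 library. That in ANKRD10-1 was lost without any 1 of its 6 libraries (adjusted p up to 0.146), under a replicate block (0.0564), with all groups in 1 fit (0.0625) and with the length trend removed (0.151). The siANKRD10-1 call was lost without siNC replicate 1 or 2 or siANKRD10-1 replicate 1 or 3 (up to 0.0906), and the siANKRD10-2 call was kept only without siNC replicate 3 (up to 0.135) and was lost by library totals (0.108) and without a filter (0.058).

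Other spindle genes were more varied. HMMR, a microtubule-binding protein of spindle poles, rose in KO1 from 91.4, 95.3 and 103.8 CPM to 105.3, 129 and 114 CPM (0.27, SE 0.08, adjusted p = 0.02) but had 90.2, 88.2 and 92.8 CPM in KO2 against 93.4, 92.7 and 97.9 CPM (-0.06). The KO1 call was lost without KO1 replicate 2 or WT1 replicate 1 or 2 (adjusted p up to 0.0847). HMMR rose in ANKRD10-1, to 123, 131 and 129 CPM from 115, 108 and 113 CPM (0.19, SE 0.05, adjusted p = 0.0221), a call lost without ANKRD10-1 replicate 2 or 3 or Vector replicate 1 or 2 (adjusted p up to 0.0991) and by library totals (0.0872), and fell in siANKRD10-2 (-0.24, SE 0.06, adjusted p = 0.00209). PRC1, which bundles the central spindle, had 576, 606 and 546 CPM in siNC and 696, 696 and 685 CPM in siANKRD10-2 (0.27, SE 0.05, adjusted p = 0.000242), although 57.6% of its exonic bases overlap another gene on the same strand. NUSAP1 and DLGAP5, which stabilize spindle microtubules, fell in KO2 by 0.18 and 0.17 (adjusted p = 0.000544 and 0.00234). For NUSAP1 62.2% of the exonic bases overlap another gene. TPX2, which activates AURKA on the spindle, rose in ANKRD10-2 (0.18, SE 0.04, adjusted p = 0.009), a call lost by library totals (0.1, adjusted p = 0.11). It fell in siANKRD10-2 (-0.14, SE 0.05, adjusted p = 0.0276), a call lost without siNC replicate 2 or any 1 siANKRD10-2 library (adjusted p up to 0.119) and by library totals (0.0676). Of the cytokinesis genes, ANLN, the scaffold of the contractile ring, had 558, 582 and 560.2 CPM in Vector, 573, 569 and 543 CPM in ANKRD10-1 and 655, 715 and 698 CPM in ANKRD10-2. It rose in ANKRD10-2 (0.29, SE 0.05, adjusted p = 0.000766) and was the only one of the 40 higher in ANKRD10-2 than in ANKRD10-1 (0.30, SE 0.05, adjusted p = 0.000773). In siANKRD10-2 ANLN fell by 0.18 (SE 0.05, adjusted p = 0.0101), a call lost without siNC replicate 2 or siANKRD10-2 replicate 2 (adjusted p up to 0.063). ECT2, the activator of RhoA at the ring, fell in KO2 (-0.17, SE 0.04, adjusted p = 0.00351) and siANKRD10-2 (-0.19, SE 0.06, adjusted p = 0.0113), of which the former was lost with all groups of the table in 1 fit (adjusted p = 0.061) and the latter without siNC replicate 2 or siANKRD10-2 replicate 1 (adjusted p up to 0.111).

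TOP2A, the topoisomerase that untangles chromosomes, was the most abundant of the 40 transcripts per kilobase of exon, with a mean of 255 CPM per kb in the knockout table against 5.68 CPM per kb for CDC25C at the other end. TOP2A fell in both knockouts. It had 1468, 1641 and 1473 CPM in KO1 against 1713, 1793 and 1894 CPM in WT1 (-0.23, SE 0.06, adjusted p = 0.00723), and 1400.0, 1416 and 1466 CPM in KO2 against 1840.0, 1763 and 1822 CPM in WT2 (-0.33, SE 0.02, adjusted p = 7.24e-07). No knockout library reached its control, and both calls were kept without any 1 library. In Vector TOP2A had 1286, 1251 and 1013 CPM, in ANKRD10-1 1229, 1257 and 1143 CPM and in ANKRD10-2 1142, 1204 and 1140.0 CPM, which overlapped. In siNC it had 1260.0, 1292 and 1238 CPM, in siANKRD10-1 1142, 1165 and 1108 CPM (-0.15, adjusted p = 0.0689) and in siANKRD10-2 1202, 1205 and 1088 CPM (-0.12, adjusted p = 0.0974). MKI67, the gene of the proliferation marker Ki-67, was at 867, 845 and 788 CPM in KO1 and 808, 848 and 812 CPM in WT1 (0.02, SE 0.05, adjusted p = 0.749). In KO2 it had 728, 707 and 764 CPM against 933, 829 and 860.2 CPM in WT2 (-0.24, SE 0.04, adjusted p = 0.000401). It fell in siANKRD10-1 to 1052, 1160.0 and 941 CPM from 1366, 1348 and 1213 CPM (-0.32, SE 0.07, adjusted p = 0.00505) and stood at 1302, 1250.0 and 1399 CPM in siANKRD10-2 (0.01, SE 0.06, adjusted p = 0.922). In Vector MKI67 had 947, 1012 and 938 CPM, in ANKRD10-1 998, 928 and 893 CPM (-0.04) and in ANKRD10-2 848, 925 and 868 CPM (-0.13, adjusted p = 0.0884). BIRC5, survivin of the chromosomal passenger complex, fell in siANKRD10-2 (-0.38, SE 0.05, adjusted p = 4.57e-06). It fell by 0.19 in siANKRD10-1 (SE 0.06, adjusted p = 0.0373), a call lost without siNC replicate 2 or 3 or siANKRD10-1 replicate 1 or 2 (adjusted p up to 0.169). In KO2 it fell by 0.09 (SE 0.03, adjusted p = 0.0456), a call lost without any 1 of the 6 libraries (adjusted p up to 0.171) and, among other alternatives, with the 6 WT libraries as control (-0.04, adjusted p = 0.531).

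FOXM1, the transcription factor of late cell cycle genes, rose in both knockouts and fell in both knockdowns. It had 166, 149 and 169 CPM in KO1 against 144, 142 and 135 CPM in WT1 (0.20, SE 0.06, adjusted p = 0.016), and 149, 148 and 153 CPM in KO2 against 141, 136 and 144 CPM in WT2 (0.10, SE 0.04, adjusted p = 0.0402). In siNC it had 65.5, 59.8 and 64.1 CPM, in siANKRD10-1 54.7, 56.5 and 49.6 CPM (-0.24, SE 0.06, adjusted p = 0.0234) and in siANKRD10-2 58.4, 52.5 and 57.9 CPM (-0.17, SE 0.06, adjusted p = 0.0324). The groups did not overlap in any of these pairs, but none of the 4 calls was kept in all settings with a library left out, with adjusted p up to 0.0648, 0.118, 0.114 and 0.198. They were lost without KO1 replicate 1 or 3 or WT1 replicate 3, without any 1 library of the KO2 pair but WT2 replicate 3, without siNC replicate 1 or siANKRD10-1 replicate 1 or 3, and without siNC replicate 1 or 3 or siANKRD10-2 replicate 2. By library totals the calls in KO1, KO2 and siANKRD10-2 were lost (adjusted p = 0.0547, 0.212 and 0.0948). Without a filter those in KO2 and siANKRD10-2 were lost (0.138 and 0.0574), with all groups in 1 fit that in KO2 (0.0921) and by DESeq2 that in siANKRD10-2 (0.0515). On the annotation 15.9% of the exonic bases of FOXM1 overlap a gene on the opposite strand. In Vector FOXM1 had 27.5, 30.9 and 29.9 CPM, in ANKRD10-1 28.5, 28.4 and 27.7 CPM (-0.06, adjusted p = 0.631) and in ANKRD10-2 26.1, 29.4 and 26.1 CPM (-0.11, adjusted p = 0.332).

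The knockouts, which share no library, were set side by side gene by gene. Of the 40 genes, 8 were called in both and all 8 moved the same way, PLK1, CDC20 and FOXM1 higher and KIF20A, CENPE, CENPF, ASPM and TOP2A lower. Among the 17445 genes tested in both knockouts, 3816 (21.9%) were called in both, a share near that of the 40 genes, and 81% of the 3816 moved the same way. A further 4 of the 40 genes were called in KO1 alone and 12 in KO2 alone. The shares of all genes called in 1 knockout alone were not computed. The log2 fold changes of the 40 genes had Pearson r = 0.76 and Spearman rho = 0.69 between the knockouts, beside r = 0.3 over 17445 genes tested in both. Genes are not independent replicates, and the values of the 40 describe those genes only. All genes tested, low counts included, ran from -12.09 to 10.18 in KO1, beside -0.42 to 0.37 for the 40. The r = 0.3 is therefore not a background matched for level, and r over genes at 10 CPM or more was not computed. Signs were the same for 24 of the 40. Tested directly, 7 genes were lower in KO2 relative to its control than in KO1 relative to its own and 0 were higher (17.5% of the 40, beside 11.2% of all genes tested lower, 12.1% higher, 23.3% in either direction and 33.7% of those at 10 CPM or more). DESeq2 gave 8 lower and 0 higher, and 11 of the 40 had an unadjusted p under 0.05. The 7 called by edgeR were HMMR, CENPA, NDC80, MKI67, KIF11, BIRC5 and AURKA. The control groups themselves did not differ in any of the 40 genes by edgeR (1.23% of all genes tested were called, 0.578% higher and 0.654% lower, and 1.99% of those at 10 CPM or more), with 7 at an unadjusted p under 0.05 and 1 called lower in WT2 by DESeq2, and their log2 differences ran from -0.24 to 0.13.

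**Figure D3:**
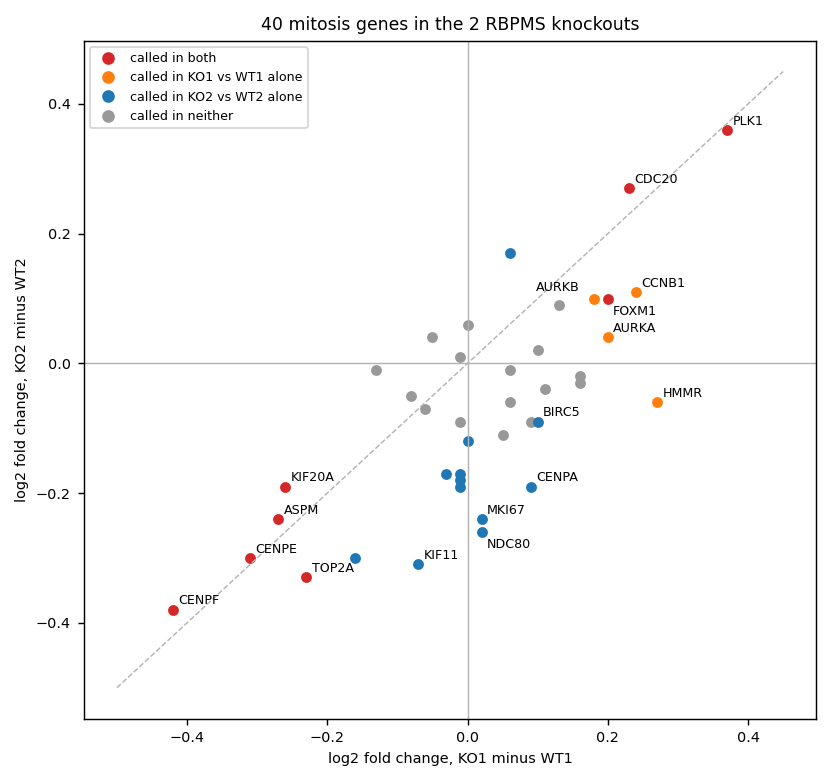
Log2 fold change of the 40 mitosis genes in KO1 minus WT1 (horizontal axis) and KO2 minus WT2 (vertical axis), colored by whether the gene was called in both, 1 or neither comparison, with the dashed line of equal change. PLK1 and CDC20 lie at the upper right and CENPF, CENPE, ASPM, KIF20A and TOP2A at the lower left, while HMMR, MKI67, NDC80 and KIF11 lie below the line.

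The direction of change was set beside transcript length. The 6 with the longest exonic sequence are MKI67, CENPF, ASPM, CENPE, BUB3 and KIF14. In KO1 3 of these 6 fell and 0 rose (median -0.16), while among the other 34 genes 7 rose and 2 fell (median 0.06). In KO2 4 of the 6 fell (median -0.24, beside -0.06 for the others), in ANKRD10-2 3 fell (median -0.18, beside 0.05) and in siANKRD10-1 3 fell (median -0.19, beside -0.08). In ANKRD10-1 1 fell (median -0.06, beside 0.07). The order was the other way in siANKRD10-2, where 1 rose and 1 fell (median -0.01, beside -0.16). Spearman's rho of log2 fold change with exonic length over the 40 genes was -0.43 in KO1, -0.30 in KO2, -0.60 in ANKRD10-1, -0.42 in ANKRD10-2, -0.54 in siANKRD10-1 and 0.17 in siANKRD10-2. Over all genes at 10 CPM or more it was -0.24, -0.12, -0.26, -0.24, -0.24 and 0.09 in the same order, with the same sign as over the 40 genes in each comparison. Between the control groups WT2 and WT1 it was -0.31 over the 40 genes. All these points come from the same libraries, and the values are a description. The share of counts on genes over 5000 bases was 53.8% to 55.2% in KO1 and 55.7% to 56.6% in WT1, and 49.9% to 50.9% in siANKRD10-2 and 45.4% to 48.0% in siNC. It was 49.9% to 50.3% in ANKRD10-1, 49.2% to 50.4% in ANKRD10-2 and 50.9% to 51.7% in Vector. It overlapped in KO2 (55.9% to 56.6%) and WT2 (55.5% to 56.5%), and in siANKRD10-1 (45.1% to 47.3%) and siNC, although rho was negative in both comparisons. When a trend of count on length was removed in each library, an alternative chosen after seeing the data, 8 genes were called higher and 5 lower in KO1, 6 and 16 in KO2, 9 and 4 in ANKRD10-2, 0 and 9 in siANKRD10-1 and 7 and 21 in siANKRD10-2, close to the counts without it. In ANKRD10-1 it left 3 higher and 1 lower, with ASPM no longer called. The falls of CENPF and ASPM in both knockouts passed the test with and without it.

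**Figure D4:**
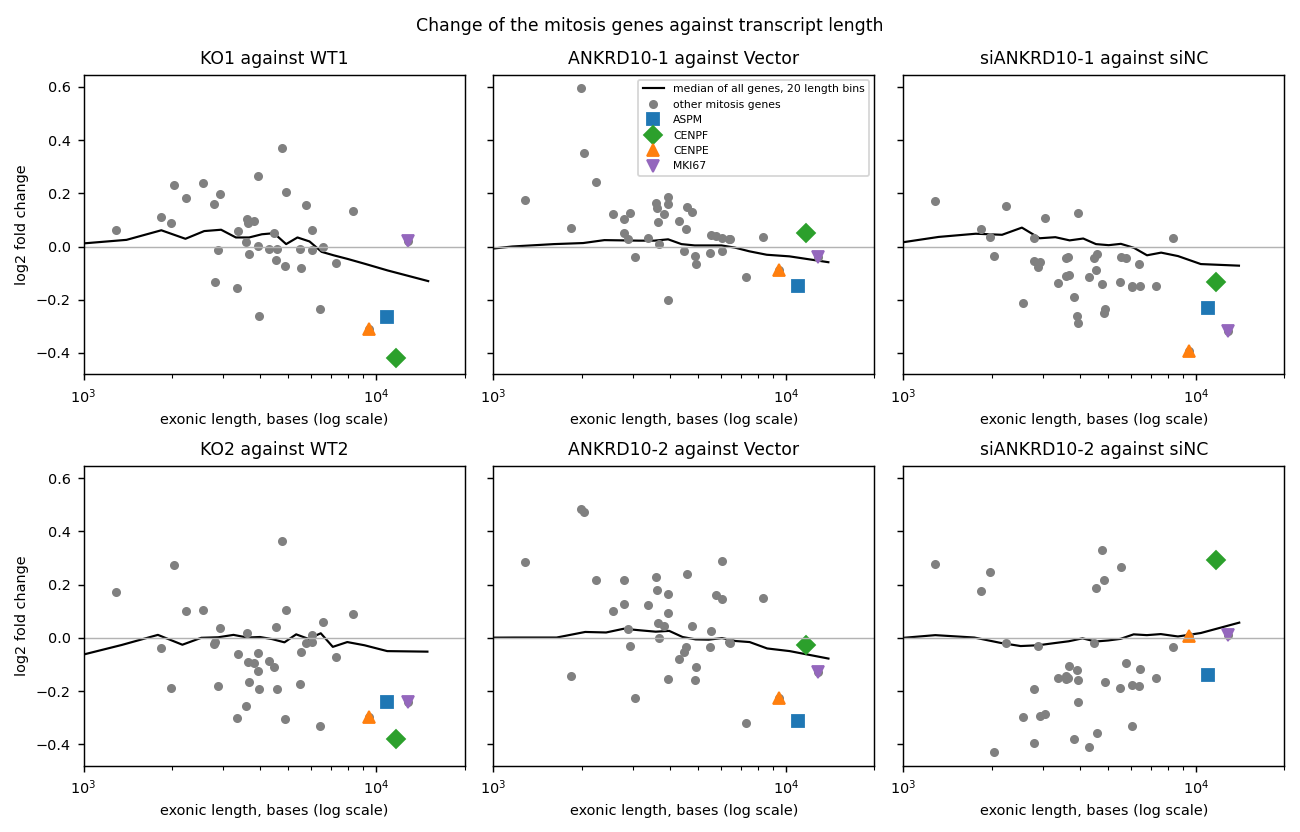
Log2 fold change (vertical axes) against exonic length in bases (horizontal axes, log scale) for the 40 mitosis genes in each comparison with a control, with 4 of the longest genes in colored symbols and the black line for the median of all genes tested in 20 bins of length. ASPM lies below 0 in every panel, and CENPF lies below 0 in the knockouts and above it in siANKRD10-2.

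Other genes of cell division were counted for comparison. Of 75 other mitosis genes, 15 rose and 6 fell in KO1, 9 rose and 25 fell in KO2, 4 rose and 1 fell in ANKRD10-1, 11 rose and 6 fell in ANKRD10-2, 2 rose and 7 fell in siANKRD10-1 and 16 rose and 22 fell in siANKRD10-2. Their medians were 0.07, -0.04, 0.02, 0.05, -0.04 and -0.04. Of the 75, 28%, 45.3%, 6.67%, 22.7%, 12% and 50.7% were called, in the same order. Of all genes tested 36.1%, 38.5%, 6.31%, 19.9%, 10.6% and 36.3% were called, and of those at 10 CPM or more 48.4%, 53%, 11.4%, 31.4%, 17.7% and 52.5%. As with the 40 genes, KO2, siANKRD10-1 and siANKRD10-2 held more falls than rises. ANKRD10-2 held more rises than falls, although by library totals the 40 genes had 3 rises and 8 falls there. Genes at 10 CPM or more also held more falls than rises in siANKRD10-2 (2633 and 2257) and siANKRD10-1 (873 and 777). They held more rises than falls in ANKRD10-2 (1833 and 1153). In KO2, unlike both lists, they held more rises than falls (2968 and 2360). Among the 75, TRIP13, a remodeler of checkpoint complexes, rose in KO1 (0.45, SE 0.06, adjusted p = 0.000111), and CKAP2, a spindle-associated protein, fell in KO2 (-0.69, SE 0.04, adjusted p = 6.5e-08). CKS2, the small partner of CDK1, rose in ANKRD10-1 (0.40, SE 0.08, adjusted p = 0.00364) and ANKRD10-2 (0.66, SE 0.09, adjusted p = 0.000116). PBK, a mitotic kinase, fell in siANKRD10-1 (-0.56, SE 0.1, adjusted p = 0.000994).

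Of 25 regulators of these genes and of the cell cycle, 1 rose and 7 fell in KO1, 4 rose and 12 fell in KO2, 1 rose in ANKRD10-1, 5 rose and 2 fell in ANKRD10-2, 1 rose and 1 fell in siANKRD10-1 and 4 rose and 7 fell in siANKRD10-2. Their medians were -0.03, -0.12, -0.01, 0.01, -0.06 and 0.02. Called were 32%, 64%, 4%, 28%, 8% and 44% of the 25, beside 36.1%, 38.5%, 6.31%, 19.9%, 10.6% and 36.3% of all genes tested. CDKN1C, an inhibitor of cyclin-dependent kinases, fell in KO1 (-2.46, SE 0.24, adjusted p = 2.17e-05), and its change in KO2 differed from that by 2.56 (SE 0.27, adjusted p = 4.08e-06). CDKN1A, the inhibitor p21, rose in KO2 (0.34, SE 0.06, adjusted p = 0.000356). RBL1, the pocket protein p107 of the DREAM complex, rose in siANKRD10-2 (0.41, SE 0.06, adjusted p = 1.57e-05).

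Of 30 genes of DNA replication, which act in the preceding S phase, 9 rose and 7 fell in KO1, 5 rose and 9 fell in KO2, 1 rose and 1 fell in ANKRD10-1, 5 rose and 2 fell in ANKRD10-2, 1 fell in siANKRD10-1 and 6 rose and 6 fell in siANKRD10-2. Their medians lay between -0.03 and 0.08 in the 6 comparisons. Called were 53.3%, 46.7%, 6.67%, 23.3%, 3.33% and 40% of the 30, beside 36.1%, 38.5%, 6.31%, 19.9%, 10.6% and 36.3% of all genes tested. In siANKRD10-1, where 9 of the 40 mitosis genes fell (22.5%), 3.33% of the replication genes were called. Without siANKRD10-1 replicate 1, 3 of the 40 fell.

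Markers of cell type moved in some of the same comparisons. In siANKRD10-2 all 8 epithelial markers fell (median -0.68), with a summed level of 4030 to 4200 CPM against 6670 to 7090 CPM in siNC and 5910 to 6230 CPM in siANKRD10-1. In ANKRD10-2 7 of 8 rose (median 0.24), with 4110 to 4670 CPM against 3610 to 3760 CPM in Vector. In KO1 and KO2 the sums overlapped those of WT1 and WT2, at 4460 to 4750 CPM against 4460 to 4550 CPM and 4140 to 4430 CPM against 4290 to 4520 CPM. Single epithelial markers did move there, with 2 higher and 1 lower in KO1 (median 0.01) and 4 higher and 3 lower in KO2 (median 0.04). The summed levels of 4 fibroblast markers were 31 to 36.5 CPM in KO1 against 52.1 to 55.9 CPM in WT1, where COL1A1 was the only one above 1 CPM in every library, and at most 56.2 CPM in any library of the series. The summed level of 3 endothelial markers was at most 3.04 CPM. The part of these markers in the changes of the mitosis genes was not tested.

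The isoforms were also compared directly. In ANKRD10-2 against ANKRD10-1, ANLN was higher and KIF14, SPC25 and ASPM were lower, 10% of the 40 genes beside 7.26% of all genes tested (4.15% higher and 3.1% lower) and 11.7% of those at 10 CPM or more. The 3 lower calls ranged from -0.21 to -0.17, and their number was 0 without ANKRD10-1 replicate 1 or 2 or ANKRD10-2 replicate 2 or 3, and 1 without ANKRD10-1 replicate 3. ASPM also lost its call under a replicate block (adjusted p = 0.0584). ANLN was kept without any 1 library. In siANKRD10-2 against siANKRD10-1, 7 of the 40 genes were higher and 11 lower (45%, beside 37% of all genes tested, 18.2% higher and 18.8% lower, and 53.2% of those at 10 CPM or more). PLK1 (0.48), KIF11 (0.47), CENPF (0.43), CENPE (0.40), MKI67 (0.33), PRC1 (0.31) and KIF4A (0.28) were higher, and CDC20 (-0.39), CDC25C (-0.39), HMMR (-0.36), CCNA2 (-0.34) and TTK (-0.32) led those that were lower. All 12 of these calls were kept without any 1 library. The lower call of AURKB was lost under a replicate block (adjusted p = 0.0528), by library totals (0.0681), without a filter (0.0556) and with the length trend removed (0.156).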

How the data were processed

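RNA-seq was analysed in 30 libraries of 5637 cells, 3 in each of 10 groups, named as in the labels. The authors report poly(A) libraries, trimming with Cutadapt and Trimmomatic 0.36, and alignment with HISAT2. Their text names StringTie and DESeq2, and the submitters' processing notes also name featureCounts, Subread 1.5.1 and GRCh38. The deposited values are raw read counts per gene without normalization, in 3 tables counted separately, so levels were not compared between tables. The library kit and sequencer are named differently in different sources, and the strand setting was not given in the sources used here. Exonic lengths came from GENCODE v29 or the tables.

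Counts were analysed in R 4.3.3. In each comparison only its groups entered the fit, and the difference between the knockouts used all 12 libraries of their table. Genes were kept by filterByExpr (minimum count 10, minimum total count 15), scaled by TMM and tested by edgeR 4.0.16 (glmQLFit, glmQLFTest, prior count 0.125), with p-values adjusted after Benjamini and Hochberg across all genes of the fit and a threshold of 0.05. Scripts were tested on simulated data. DESeq2 1.42.0, other scalings, no filter, other sets of libraries in the fit, a replicate block and each library left out in turn were the alternatives. TMM factors ran from 0.968 to 1.033. No pair of replicates differed by as little as sampling noise, with chi-square per degree of freedom from 4.44 to 21.3 over 30 pairs. With 3 libraries a group, precision rests on the spread that edgeR estimates over all genes.

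All 40 genes could be named. Values in every library are given for 10 genes of a fixed list (CDK1, CCNB1, PLK1, AURKA, BUB1, CDC20, KIF20A, TOP2A, MKI67 and FOXM1), for up to 3 of the largest called rises and falls of each comparison with a control and, after seeing the values, for a few others. From each other list up to 3 called genes per comparison could be named. The 40 genes, the other lists and the tests were chosen with earlier results of these data known.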

Additional observations from a re-analysis of the deposited data

Results flagged for a closer look

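The effect of KO2 differed from that of KO1, by an interaction term in edgeR's fit over the 12 libraries, in 7 of the 40 genes, each with a lower value in KO2. The KO2 effect minus the KO1 effect was -0.32 for HMMR (SE 0.09, adjusted p = 0.0201, from 0.27 in KO1 and -0.06 in KO2). It was -0.27 for CENPA (SE 0.09, adjusted p = 0.0346, from 0.09 and -0.19) and -0.27 for NDC80 (SE 0.09, adjusted p = 0.0418, from 0.02 and -0.26). It was -0.26 for MKI67 (SE 0.06, adjusted p = 0.00612, from 0.02 and -0.24) and -0.23 for KIF11 (SE 0.08, adjusted p = 0.0383, from -0.07 and -0.31). It was -0.19 for BIRC5 (SE 0.05, adjusted p = 0.0122, from 0.10 and -0.09) and -0.16 for AURKA (SE 0.05, adjusted p = 0.0439, from 0.20 and 0.04). The difference between the controls enters this term. By edgeR, WT2 minus WT1 was 0.09 for MKI67 (SE 0.04, adjusted p = 0.433) and 0.11 for BIRC5 (SE 0.04, adjusted p = 0.21), neither called. MKI67 and BIRC5 kept the call of the knockout difference without any 1 of the 12 libraries. HMMR kept it in 9 of 12 such settings and lost it without WT1 replicate 1, WT1 replicate 2 or WT2 replicate 3 (adjusted p up to 0.0643). CENPA kept it in 5, NDC80 in 4, and KIF11 and AURKA in 3, with adjusted p up to 0.113, 0.123, 0.104 and 0.142. Without KO1 replicate 2, CENPA, KIF11, AURKA and NDC80 were no longer called and 3 genes were left, and without WT1 replicate 1, WT1 replicate 2 or WT2 replicate 3 2 genes were left. Without KO2 replicate 1 or 3 the number was also 3. AURKA also lost its call with DESeq2 size factors (adjusted p = 0.0554), under a replicate block (0.0538), without a filter (0.0703) and with the length trend removed (0.151). KIF11 and NDC80 lost theirs without a filter (0.0621 and 0.0566) and with the length trend removed (0.0576 and 0.0696), and CENPA with the length trend removed (0.0692).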

How the results depend on the processing

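Of 114 called values of the 40 genes, 0 changed sign under any alternative, and 67 stayed called without any 1 library. No call passed a required change of 1 log2 unit (0 genes). By library totals, calls were 2 higher in KO2, 1 higher in ANKRD10-1 and 3 higher and 8 lower in ANKRD10-2, and medians were -0.109 in KO2, 0.001 in ANKRD10-1, -0.041 in ANKRD10-2, -0.117 in siANKRD10-2, -0.065 for ANKRD10-2 against ANKRD10-1 and 0.011 for siANKRD10-2 against siANKRD10-1. Medians over all genes tested were then -0.059, -0.048, -0.085, 0.03, -0.039 and 0.027 in the same order. Without a filter, calls were 2 higher in KO2, 6 higher in ANKRD10-1 and 4 lower for the knockout difference. DESeq2 gave 5 higher in ANKRD10-1 and 1 lower in WT2 against WT1. A fit over all groups gave 11 higher in KO1 and 1 lower in ANKRD10-1, and the 6 WT libraries as control gave 11 higher in KO1. With the length trend removed there was 1 lower in ANKRD10-1, 3 lower for the knockout difference, 12 higher in siANKRD10-2 against siANKRD10-1, and a median of -0.132 in siANKRD10-2. The causes were not tested.

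Replicate numbers were not used as pairs in the main fits. Same-numbered libraries correlated above 0.1 for every number in no comparison (r from -0.08 to 0.17). With 3 libraries a group this cut cannot exclude pairing. In KO2 and ANKRD10-2 all 3 numbers correlated best with their own. Over all genes tested, a replicate block moved the calls from 4017 to 4766 in ANKRD10-2, from 1991 to 2778 in siANKRD10-1 and from 6454 to 6082 in KO1. A replicate block gave 1 lower in ANKRD10-1 and 1 higher in siANKRD10-1, and the calls it lost were those of ASPM in ANKRD10-1 and between the isoforms, AURKA for the knockout difference and AURKB between the siRNA groups.

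Without 1 library, calls higher and lower ran from 4 to 7 and 4 to 7 in KO1, 2 to 5 and 13 to 15 in KO2, 0 to 4 and 0 to 1 in ANKRD10-1, 5 to 8 and 2 to 4 in ANKRD10-2, 0 to 1 and 3 to 12 in siANKRD10-1, 6 to 8 and 14 to 19 in siANKRD10-2 and 0 to 1 and 2 to 10 for the knockout difference. KO1 had 4 higher without KO1 replicate 3, KO2 2 higher without KO2 replicate 2 or WT2 replicate 1, ANKRD10-1 1 higher without ANKRD10-1 replicate 2 or 3 or Vector replicate 1 and 0 without Vector replicate 2, and 0 lower without ANKRD10-1 replicate 1 or 2 and 1 without any other. ANKRD10-2 had 5 higher without Vector replicate 1 and 2 lower without ANKRD10-2 replicate 1 or 3 or Vector replicate 1 or 2, and siANKRD10-1 had 1 higher without siANKRD10-1 replicate 2 and 3 lower without siANKRD10-1 replicate 1. The isoform differences had 1 to 1 and 0 to 4 in overexpression and 7 to 9 and 9 to 11 in knockdown. Medians ran from 0.039 to 0.071 in ANKRD10-1, 0.019 to 0.056 in ANKRD10-2, -0.108 to -0.071 in siANKRD10-1, -0.153 to -0.129 in siANKRD10-2, -0.135 to -0.069 for the knockout difference, -0.057 to -0.01 for overexpression and -0.033 to -0.007 for knockdown.

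Uncalled values near 0 changed sign. In KO1 CDK1 became -0.04 by library totals, 0 without a filter or with the block and -0.03 without the length trend, BUB1 0.03 with 6 WT libraries and 0 without the length trend, and MKI67 -0.02 by library totals or with 6 WT libraries. In KO2 AURKA became 0 and BUB1 -0.03 by library totals, and BUB1 0 without a filter and -0.03 with 6 WT libraries. BUB1 and TOP2A became -0.01 and MKI67 0.01 (length trend) in ANKRD10-1, PLK1 -0.03 in ANKRD10-2, CENPA -0.01 in siANKRD10-1 and MKI67 -0.03 in siANKRD10-2. Without 1 library, ranges that crossed 0 were -0.08 to 0.08 for CDK1 and -0.06 to 0.02 for BUB1 in KO1, -0.04 to 0.05 for BUB1 in KO2, -0.07 to 0.09 for TOP2A in ANKRD10-1, -0.09 to 0.04 for AURKA, -0.12 to 0.04 for TOP2A and -0.01 to 0.1 for PLK1 in ANKRD10-2, -0.07 to 0.15 for CENPA in siANKRD10-1 and -0.04 to 0.05 for MKI67 in siANKRD10-2.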
